A study of Mus musculus with 31 samples.

Results

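The Notch pathway was described through 10 genes chosen by symbol: the receptors Notch1, Notch2, Notch3 and Notch4, the ligands Jag1, Jag2 and Dll4, and the target genes Hes1, Hey1 and Heyl. All 10 were among the 23509 genes counted in each kidney, and all 10 passed the filter on low counts that kept 15185 genes. Kidney mRNA was sequenced from 31 mice in 3 groups, asking how the polycystic kidney differs from the normal one and how treatment with the oligonucleotide RGLS4326 changes it. Pcy/CD1 mice, which carry the recessive pcy mutation on the CD1 stock and develop slowly growing cysts throughout the kidney, received subcutaneous PBS (n = 12) or RGLS4326 at 25 mg/kg (n = 14) from 5 weeks of age for 25 weeks. Wild-type CD1 mice of the same age (n = 5, all male) were left untreated. All kidneys were taken at 30 weeks of age. The Pcy/CD1 mice were also male by the study's account, which the labels do not state. Because the wild-type mice were not injected, genotype and injection cannot be told apart in any comparison with them. The labels give the PBS injections as weekly in 1 field and as monthly in another, and RGLS4326 as monthly.

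Notch signalling passes between touching cells. A ligand of the Jagged or Delta-like family on 1 cell binds a receptor on its neighbour, the receptor is cut by ADAM proteases and then by gamma-secretase, and the released intracellular domain enters the nucleus, where it joins Rbpj and Mastermind proteins and switches on Hes and Hey repressor genes. In the kidney the pathway is known for patterning the nephron during development, for setting the balance of principal and intercalated cells in the collecting duct, and for its activity in endothelium, in vessel walls and in injured tubules. RGLS4326 is a short oligonucleotide that inhibits the miR-17 family of microRNAs, which silence mRNAs carrying a match to their seed, bases 2 to 8 of the mature strand.

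The mature family members are shown because they define the sequence searched for below. In RefSeq (GRCm38.p6), 7 mature mouse microRNAs carry the seed of miR-17-5p, which lies at chr14:115043684-115043706 on the plus strand. The 6 members of the family are given 5′ to 3′ with the seed in capitals, and miR-6383 was the seventh.
mmu-miR-17-5p: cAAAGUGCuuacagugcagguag
mmu-miR-20a-5p: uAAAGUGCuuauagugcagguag
mmu-miR-106b-5p: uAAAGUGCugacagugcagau
mmu-miR-93-5p: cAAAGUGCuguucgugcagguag
mmu-miR-20b-5p: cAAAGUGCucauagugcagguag
mmu-miR-106a-5p: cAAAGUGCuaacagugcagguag

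The match to this seed in an mRNA reads GCACTTT, and it was searched on the sense strand of the longest annotated 3′UTR of each protein-coding gene in GENCODE vM21 (GRCm38). The letters were found in 0 of the 10 members and in 7 of 49 other pathway genes, against 11.8% of 21020 genes. The 7 were Furin, Rbpj, Maml1, Maml3, Kat2b, Itch and Neurl1b. The absence of these letters from the member 3′UTRs covers this window and this match alone. The sites of Kat2b, Itch and Neurl1b are shown because these 3 transcripts passed the test between RGLS4326 and PBS, and that of Rbpj because its product binds the DNA at Notch targets. Each lies in the last exon, within the 3′UTR, and the capitals mark the seed match, at chr17:53670995-53671001 (plus strand) in Kat2b, chr2:155225568-155225574 (plus strand) in Itch, chr17:26445956-26445962 (plus strand) in Neurl1b and chr5:53655071-53655077 (plus strand) in Rbpj.
Kat2b: tgtaataattaGCACTTTtgaaaaacaaa
Itch: aactgatgaatGCACTTTgaccttctctg
Neurl1b: tgtgtgtgtgtGCACTTTttatcctttaa
Rbpj: tttccatccctGCACTTTggttattcctt

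Between 14892524 and 27459962 reads per kidney were assigned to genes (median 19961466). Expression is given as CPM, the gene's share of each library's counts on a common scale, after scaling by trimmed means of M-values (TMM). Raw counts of the members ranged from 15 for Hey1 to 2250 for Notch2 in single kidneys, so Hey1 was the member measured with least precision. The library labelled RGLS4326 mouse 9 stood apart from its group. Its injury transcript Lcn2 read 2.76 CPM, within the wild-type range of 0.943 to 11.2 CPM, whereas the other 13 RGLS4326-treated kidneys read 126 to 607 CPM. The 5 proximal tubule markers summed to 11560 CPM in mouse 9, to 4810 to 8711 CPM in the other 13 and to 12420 to 13630 CPM in wild type. Its 3 collecting duct markers summed to 582 CPM, also within the wild-type range of 337 to 602 CPM. Not every list lay in the wild-type range. Its fibroblast markers summed to 136 CPM, above wild type at 77.2 to 118.5 CPM and below the other 13 at 252 to 645 CPM. Its mural cell markers, at 243 CPM, lay above wild type at 159 to 199 CPM and inside the other 13 at 236 to 441 CPM. Several of these values are thus unlike those of its labelled group, and whether the library was mislabelled or swapped was not tested. Each result resting on the RGLS4326 group is therefore given with and without this library where the difference matters. Wild-type mice 3 and 4 were far more alike than any other wild-type pair, with a chi-square of their counts of 2.69 per gene against 15.4 to 22.5 for the other pairs. The labels name 5 wild-type mice, so the pair was kept as 2, but the counts cannot show whether both libraries come from separate animals. With the pair merged, Dll4 in RGLS4326 against wild type was the 1 member call that changed. The library names carry sample numbers that restart, giving 3 number series. No label or file header says what these series stand for. The main fit did not include them. They entered only in alternatives, as a covariate, as single series fitted alone or by centring values within them. Series 1 and 2 hold 2 wild-type mice each, those of series 2 being the alike pair 3 and 4, and series 3 holds 1.

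Per kilobase of exon, Hes1 was the most abundant member in every group and Hey1 the least. In wild-type kidneys Hes1 averaged 15.6 ± 1.01 CPM per kb (SD, n = 5), followed by Notch2 at 6.94 ± 0.338, Jag1 at 5.21 ± 0.174 and Notch4 at 4.19 ± 0.740. The ranges of Hes1, Notch2 and Jag1 did not overlap with each other, and the highest Notch4 value, 5.02, lay just under the lowest Jag1 value, 5.03. Dll4 (3.49), whose range overlapped that of Notch4, Notch3 (3.34) and Notch1 (2.69) followed with overlapping ranges, then Jag2 (1.57) and Heyl (1.5), which also overlapped each other, and Hey1 (0.640). In PBS-treated kidneys Jag1, at 7.58 ± 0.830 CPM per kb (SD, n = 12), stood beside Notch2 at 7.54 ± 0.605, with overlapping ranges. The order of means also differed from wild type in that Notch1 (3.32) stood above Dll4 (3.19) and Notch3 (3.05), and Heyl (2.75 ± 0.579) above Jag2 (2.05), again with overlapping ranges. Hes1 reached 30.3 ± 7.81 CPM per kb in that group. In RGLS4326-treated kidneys Hes1 averaged 26.9 ± 6.05, Notch2 7.26 ± 0.596 and Jag1 6.57 ± 0.686 CPM per kb (SD, n = 14).

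**Figure D1:**
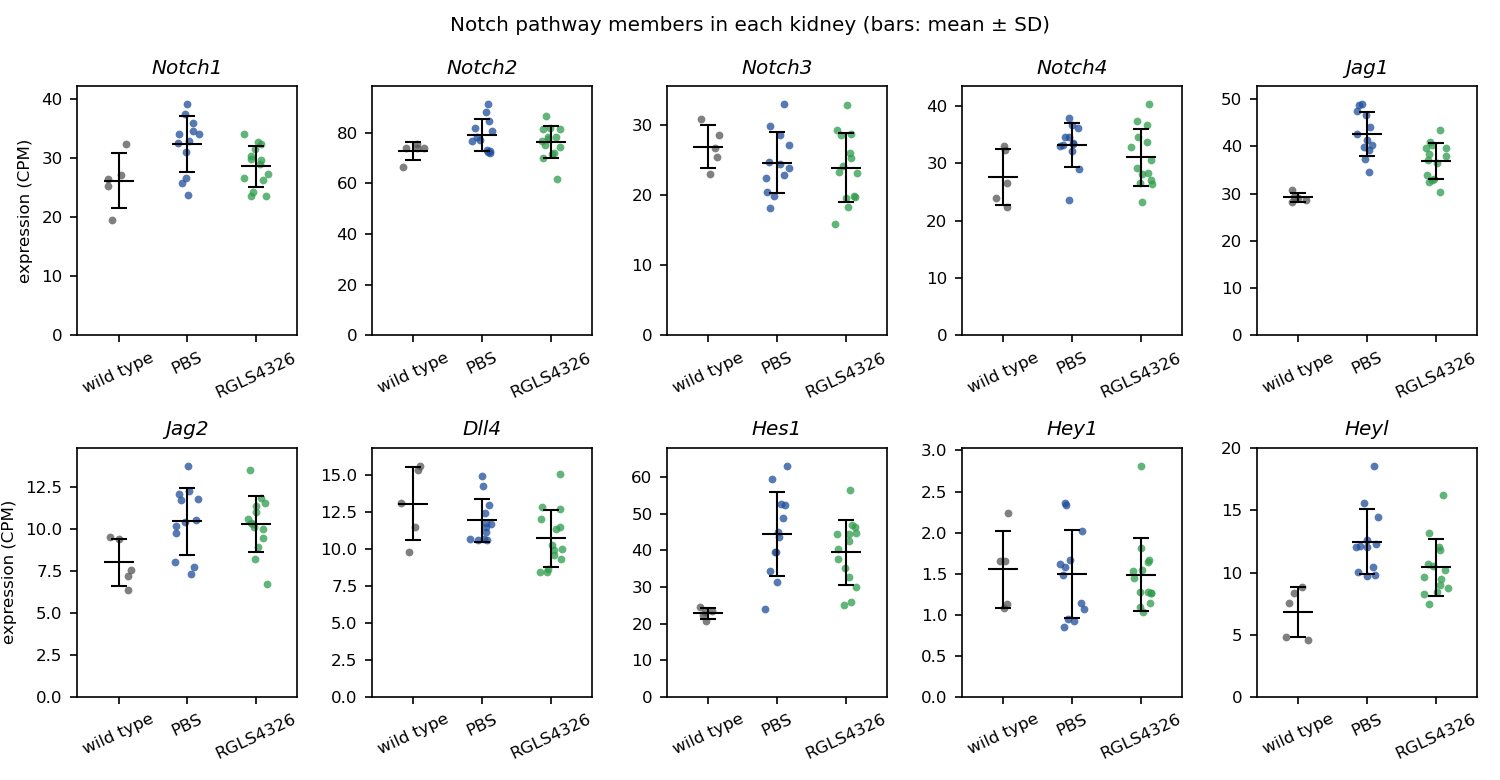
Expression of the 10 members in each kidney, in CPM on a linear axis from 0 and not corrected for gene length, with 1 point per mouse and bars for the mean ± SD (wild type n = 5, PBS n = 12, RGLS4326 n = 14). All 12 PBS points lie above all 5 wild-type points for Jag1 and Heyl, and 11 of 12 do for Hes1. Such separation also held for other pathway genes, among them Lfng, Pofut1 and Dtx3, and its share over all genes was not counted.

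In polycystic kidneys given PBS, 6 of the 10 members were higher than in wild-type kidneys and none was lower at an adjusted p under 0.05. The ligand Jag1 and the targets Hes1 and Heyl rose most, by 1.46-fold, 1.95-fold and 1.83-fold, and Notch1, Notch4 and Jag2 rose by 1.20-fold to 1.31-fold. The same test called 74.3% of all genes, and 37.7% were called as higher, so the members' 6 of 10 is set against a background in which most genes differed. At the added requirement of an absolute log2 fold change over 0.5, 3 of 10 members were called, against 42.4% of all genes. The median log2 fold change of the members was 0.28, beside 0.01 over all genes tested. Calls over all genes split into 5721 higher and 5560 lower under TMM, and into 6978 higher and 4336 lower under upper-quartile scaling, which moved the median of all genes to 0.13. Unless DESeq2 is named, all p-values for group differences are from the quasi-likelihood test of edgeR. The Benjamini-Hochberg adjustment ran over the genes tested in each fit, 15185 in the main fit.

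Of the receptors, Notch1 (chr2:26457903-26516663, minus strand, GRCm38) read 25.4, 19.6, 32.5, 27.2 and 26.5 CPM in wild-type mice 1 to 5. In PBS-treated kidneys it read 23.8 to 39.1 CPM with a median of 33.6. The groups overlapped, with 8 of 12 PBS kidneys above every wild-type kidney, and Notch1 rose by a log2 fold change of 0.31 (SE 0.11, adjusted p = 0.0126). Without wild-type mouse 2, the lowest, the adjusted p was 0.0723. The rise was unequal between the number series, at 0.63, 0.03 and 0.30 on the log2 scale in series 1, 2 and 3 (adjusted p = 0.00309, 0.900 and 0.262). Notch4 (chr17:34564268-34588503, plus strand), known mainly from endothelium, ranged from 22.3 to 33.1 CPM in wild type and from 23.7 to 37.9 CPM with PBS. It too had 8 of 12 PBS kidneys above all wild-type kidneys and rose by 0.26 (SE 0.11, adjusted p = 0.0345). That call depended on single mice. The adjusted p was 0.0524 without PBS mouse 11, 0.0673 without wild-type mouse 1, 0.129 without wild-type mouse 2 and 0.104 without wild-type mouse 5. Within the series the log2 difference of Notch4 was 0.47, 0.01 and 0.49 (adjusted p = 0.0153, 0.976 and 0.178). In series 2 both receptors thus lay close to the wild-type level.

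Notch2 (chr3:98013527-98150361, plus strand) and Notch3 (chr17:32120820-32166852, minus strand), the receptor known from vascular smooth muscle and pericytes, did not pass the test with all mice, TMM scaling and the standard filter. Notch2 averaged 72.9 ± 3.54 CPM (SD, n = 5) in wild type and 79.1 ± 6.36 CPM (SD, n = 12) with PBS, a log2 difference of 0.12 (95% interval -0.00 to 0.24, adjusted p = 0.0766). Without RGLS4326 mouse 14, which enters the shared estimate of spread, its adjusted p was 0.0411. Notch2 also passed as higher under upper-quartile scaling (0.24, adjusted p = 0.00114), with genes averaging at least 1 CPM (0.16, adjusted p = 0.0210) and with only these 2 groups fitted (0.14, adjusted p = 0.0359), so its call depended on these choices. Notch3 averaged 26.9 ± 3.01 and 24.6 ± 4.36 CPM, a log2 difference of -0.13 (95% interval -0.39 to 0.14, adjusted p = 0.392). These intervals leave differences of more than 0.5 outside their bounds.

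Jag1 (chr2:137081456-137116644, minus strand) encodes the Jagged ligand known for its part in bile duct and nephron formation. It read 28.6, 28.2, 29.2, 29.4 and 30.8 CPM in the wild-type mice, a spread narrower than that of any other member relative to its mean. In PBS-treated kidneys it read 34.5 to 48.8 CPM, with a median of 41.9. No PBS kidney fell within the wild-type range, which also held for other pathway genes such as Pofut1 and Dtx3. Jag1 rose by a log2 fold change of 0.54 (SE 0.08, adjusted p = 5.3e-07). Within series 1, 2 and 3 the difference was 0.55, 0.55 and 0.53 on the log2 scale (adjusted p = 0.00524, 0.00736 and 0.0393), the third resting on 1 wild-type mouse.

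Jag2 (chr12:112907819-112929776, minus strand), the second Jagged ligand, ranged from 6.37 to 9.52 CPM in wild type and from 7.33 to 13.8 CPM with PBS (median 10.5). With 9 of 12 PBS kidneys above every wild-type kidney, it rose by 0.39 (SE 0.14, adjusted p = 0.0136), a call that was lost without wild-type mouse 1 (adjusted p = 0.0570). Within the series its difference was 0.60, 0.21 and 0.49 (adjusted p = 0.0312, 0.382 and 0.233). Dll4 (chr2:119325784-119335962, plus strand), the Delta-like ligand of sprouting endothelium, went the other way without passing the test. It ranged from 9.80 to 15.6 CPM in wild type and from 10.6 to 14.95 CPM with PBS, so every PBS kidney lay inside the wild-type range, and the log2 difference was -0.13 (95% interval -0.36 to 0.10, adjusted p = 0.329).

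Hes1 (chr16:30064384-30067796, plus strand), the repressor most widely used as a readout of Notch activity and one that other signals also induce, read 20.6, 22.3, 23.1, 23.4 and 24.6 CPM in wild-type mice 1 to 5. The PBS-treated kidneys read 24.1 to 63.0 CPM, with a median of 44.3. The lowest PBS kidney fell inside the wild-type range and the other 11 above it, and Hes1 rose by a log2 fold change of 0.96 (SE 0.18, adjusted p = 2.4e-05). Within number series 1, 2 and 3 the log2 difference was 0.87, 0.93 and 1.05 (adjusted p = 0.0294, 0.00898 and 0.0579).

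Heyl (chr4:123233556-123249875, plus strand), a Hey-family repressor known from vascular smooth muscle, ranged from 4.60 to 8.81 CPM in wild type and from 9.74 to 18.6 CPM with PBS. The groups did not overlap, which also held for other pathway genes such as Lfng and Pofut1, and Heyl rose by 0.87 (SE 0.17, adjusted p = 5.1e-05). Its size varied between number series, with log2 differences of 1.55, 0.51 and 0.64 (adjusted p = 0.00154, 0.0567 and 0.0488). Hey1 (chr3:8663359-8667256, minus strand), a related repressor known from endothelium, averaged 1.55 ± 0.472 CPM in wild type and 1.5 ± 0.533 CPM with PBS. Its log2 difference of -0.04 (95% interval -0.50 to 0.43, adjusted p = 0.894) turned to 0.09 under upper-quartile scaling and was too wide to place the gene.

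**Figure D2:**
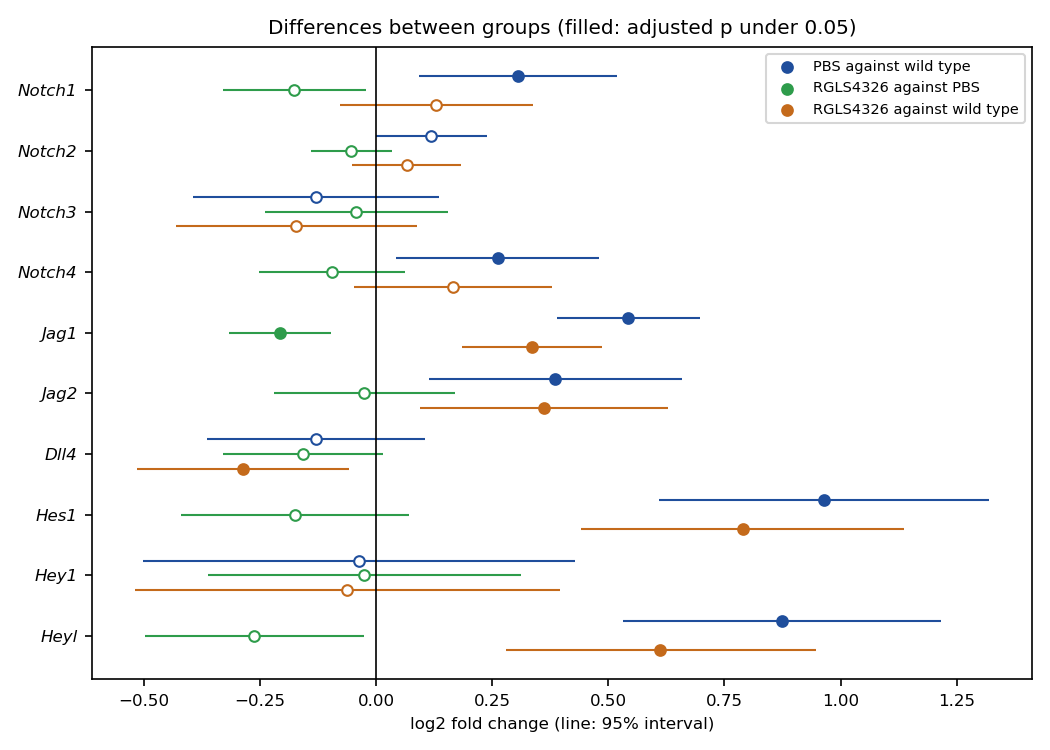
Log2 fold changes of the 10 members in the 3 comparisons, with lines for 95% intervals and filled points where the adjusted p was under 0.05. Hes1, Heyl and Jag1 lie farthest to the right in PBS against wild type, at 0.96, 0.87 and 0.54, and Jag1 at -0.21 is the only filled point for RGLS4326 against PBS.

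Between RGLS4326 and PBS, 1 of the 10 members passed the test. Jag1 was lower with RGLS4326 by 1.15-fold, and it remained above the wild-type level. The same test called 15.8% of all genes and 6.66% as lower, so 1 of 10 is near that background. At an absolute log2 fold change over 0.5, 0 of 10 members were called by edgeR and 0 by DESeq2, against 2.15% of all genes, while 3 members (Notch1, Jag1 and Heyl) had an unadjusted p under 0.05 with each tool, below the 36.8% of all genes with edgeR. Every one of the 10 fitted differences was negative, as were 7753 of the 15185 genes tested. Their median was -0.13, beside -0.004 over all genes tested. The members varied together between kidneys, so the 10 signs are not independent. The sign of Notch2, Notch3, Jag2 and Hey1 reversed in some single number series. Calls over all genes split into 1390 higher and 1012 lower under TMM and into 1006 higher and 1378 lower under upper-quartile scaling.

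Jag1 read 30.2 to 43.5 CPM in RGLS4326-treated kidneys, with a median of 37.6, beside 34.5 to 48.8 CPM and a median of 41.9 with PBS. The groups overlapped, with 13 of 14 RGLS4326 kidneys below the PBS median and 5 below every PBS kidney. The log2 fold change was -0.21 (SE 0.06, adjusted p = 0.0214). Without RGLS4326 mouse 9 it was -0.19 (adjusted p = 0.0351), and without PBS mouse 10 it was also -0.19 but did not pass (adjusted p = 0.0511). The difference was unequal between the number series, at -0.05, -0.24 and -0.30 in series 1, 2 and 3 (adjusted p = 1, 0.237 and 0.194). Within a series edgeR called 0 of all genes tested, while 280, 2981 and 3045 genes had an unadjusted p under 0.05 in series 1, 2 and 3.

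The other members gave differences that did not pass. Heyl had the largest, at 12.5 ± 2.63 CPM with PBS (SD, n = 12) and 10.4 ± 2.31 CPM with RGLS4326 (SD, n = 14), a log2 difference of -0.26 (95% interval -0.50 to -0.03, adjusted p = 0.113). In 12 of 14 RGLS4326 kidneys it lay below the PBS median. It passed in 1 of the 31 fits that left out a mouse, that without RGLS4326 mouse 2 (adjusted p = 0.0351). Notch1 averaged 28.7 ± 3.47 CPM with RGLS4326, a log2 difference of -0.18 (95% interval -0.33 to -0.02, adjusted p = 0.104), and 13 of 14 kidneys lay below the PBS median. It passed without PBS mouse 7 (adjusted p = 0.0470). Hes1 averaged 44.5 ± 11.5 CPM with PBS and 39.5 ± 8.89 CPM with RGLS4326, a log2 difference of -0.17 (95% interval -0.42 to 0.07, adjusted p = 0.308). The remaining 6 ranged from -0.16 for Dll4 to -0.03 for Jag2 and Hey1, and their adjusted p-values from 0.193 to 0.926. Without mouse 9 no further member passed. Hey1 then moved from -0.03 to -0.13 and Notch3 from -0.04 to -0.08 on the log2 scale, Dll4 reached -0.20 (adjusted p = 0.0926), and Heyl was -0.24 (adjusted p = 0.169).

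Set against wild type, RGLS4326-treated kidneys had 5 of 10 members called, 4 higher and 1 lower, where 64.9% of all genes were called. At an absolute log2 fold change over 0.5 the members called were Hes1 and Heyl, 2 of 10, against 31.5% of all genes. The comparison shares its treated mice with the RGLS4326 and PBS comparison and its wild-type mice with the PBS and wild-type comparison, so the values are set side by side and not counted as further evidence. Hes1 was 0.79 higher on the log2 scale (SE 0.18, adjusted p = 0.000335), beside 0.96 in PBS kidneys. All 14 RGLS4326 kidneys, at 25.0 to 56.4 CPM, lay above the highest wild-type kidney at 24.6 CPM, mouse 9 being the lowest of them. Heyl was 0.61 higher (SE 0.17, adjusted p = 0.00251) beside 0.87, with 10 of 14 kidneys above the wild-type range. Its size again varied between number series, at 1.39, 0.04 and 0.50 on the log2 scale in series 1, 2 and 3 (adjusted p = 0.00300, 0.892 and 0.132). Jag1 was 0.34 higher (SE 0.08, adjusted p = 0.000394) beside 0.54, with 13 of 14 above it, and the differences within the series were 0.50, 0.30 and 0.22 (adjusted p = 0.00984, 0.110 and 0.363). Those of Hes1 were 0.86, 0.70 and 0.78 (adjusted p = 0.0336, 0.0781 and 0.165).

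Jag2 was 0.36 higher (SE 0.14, adjusted p = 0.0216), a call lost without wild-type mouse 1 (adjusted p = 0.0831) or wild-type mouse 5 (adjusted p = 0.0574). Dll4 was the member below wild type. It read 8.44 to 15.1 CPM with RGLS4326, with 5 of 14 kidneys below every wild-type kidney, and fell by 0.29 on the log2 scale (SE 0.12, adjusted p = 0.0321). The highest of the 14, at 15.1 CPM, was mouse 9, and without it Dll4 fell by 0.33 (adjusted p = 0.00799). The call was lost without wild-type mouse 1 (adjusted p = 0.0590), mouse 3 (adjusted p = 0.147) or mouse 4 (adjusted p = 0.130), and also under upper-quartile scaling (-0.19, adjusted p = 0.145), with genes averaging at least 1 CPM (adjusted p = 0.0561), with only these 2 groups fitted (adjusted p = 0.0737) and with wild-type mice 3 and 4 merged (adjusted p = 0.139). Notch1 and Notch4, called in PBS kidneys, were 0.13 and 0.17 above wild type with RGLS4326 and did not pass (adjusted p = 0.284 and 0.179). With TMM scaling in edgeR, and with DESeq2, 0 of the 4 receptors passed and 0 had an unadjusted p under 0.05, where 68.1% of all genes did with edgeR. Under upper-quartile scaling Notch2 (0.16, adjusted p = 0.0268, beside 0.07 with TMM) and Notch4 (0.26, adjusted p = 0.0438) passed as higher. In number series 1 alone Notch1 (0.40, adjusted p = 0.0277) and Notch4 (0.39, adjusted p = 0.0361) did. The members called in this comparison were the same 5 without mouse 9.

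The rest of the pathway was described from a list of 49 genes, of which 43 passed the filter. The low ones were Dll3, Dlk1, Rbpjl, Hes3, Hes5 and Hes7. In PBS against wild type, 31 of 43 were called, 15 higher and 16 lower, and 16 of 43 at an absolute log2 fold change over 0.5. That is 72.1% called, beside 74.3% of all genes, and the 16 compare with 42.4% of all genes at that size, so neither count stands above the background. Between RGLS4326 and PBS, 10 of 43 were called, 4 higher and 6 lower, and 0 at that size by edgeR beside 2 by DESeq2 and 18 at an unadjusted p under 0.05. The 10 are 23.3% of those tested, beside 15.8% of all genes. Of all genes, 2.15% were called at that size by edgeR and 2.64% by DESeq2, and 36.8% had an unadjusted p under 0.05 with edgeR. Without RGLS4326 mouse 9 the 10 became 5, namely Aph1c, Dll1, Kat2b, Neurl1b and Pofut1, while the share of all genes called went from 15.8% to 8.14%. The medians over the 43 genes were 0.08 and -0.01 on the log2 scale.

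Among the proteases and gamma-secretase subunits that release the receptor's intracellular domain, 8 of 10 were called in PBS kidneys, 6 lower and 2 higher, near the 74.3% of all genes. Furin, which cuts the receptor precursor, fell by 0.55 on the log2 scale (adjusted p = 2.5e-08), and Aph1a, a scaffold subunit of gamma-secretase, fell by 0.38 (adjusted p = 4.5e-07). With RGLS4326, Aph1c was 0.25 higher than with PBS (adjusted p = 0.0135) and remained lower than in wild type, at a log2 fold change of -0.30. Aph1b and Aph1c are near-identical copies, so the division of reads between them is uncertain. Of the 4 other ligands listed, 2 were tested. Dll1, a Delta-like ligand, was 0.15 above wild type with PBS without passing (adjusted p = 0.0742) and was lower with RGLS4326 than with PBS by a log2 fold change of -0.23 (adjusted p = 0.0141), and all 14 treated kidneys lay below the PBS median.

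Of the glycosyltransferases that tune which ligand a receptor answers, 4 of 5 were higher in PBS kidneys than in wild type and 0 lower, where 37.7% of all genes were higher, with Lfng, lunatic fringe, at 0.91 (adjusted p = 3.0e-05), Mfng, manic fringe, at 0.56 (adjusted p = 0.00120) and Pofut1, which adds the fucose that fringe extends, at 0.30 (adjusted p = 4.4e-05). Pofut1 was then lower with RGLS4326 than with PBS, by a log2 fold change of -0.16 (adjusted p = 0.0237). In the nuclear complex 6 of 9 were called in PBS kidneys, 5 lower and 1 higher, near the 74.3% of all genes. Kat2b, a histone acetyltransferase recruited by the complex, fell by 0.70 (adjusted p = 2.0e-07), Spen, a corepressor of Rbpj, fell by 0.72 (adjusted p = 1.2e-05), and Snw1, a cofactor, fell by 0.23 (adjusted p = 1.2e-05). Kat2b, with the seed match printed above, was 0.26 higher with RGLS4326 than with PBS (adjusted p = 0.0238). Rbpj, which also holds a match, differed by -0.13 in PBS against wild type (adjusted p = 0.184) and by 0.08 in RGLS4326 against PBS (adjusted p = 0.355).

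The regulators of ligand and receptor trafficking and turnover held the largest differences of the pathway. In PBS kidneys 11 of 13 were called, 8 higher and 3 lower, beside 74.3% of all genes. Neurl1a, a ubiquitin ligase of the Neuralized family that acts on ligands, was 2.87 higher on the log2 scale (SE 0.35, adjusted p = 4.0e-08), Dtx4, a Deltex ubiquitin ligase, was 1.98 higher (SE 0.25, adjusted p = 8.0e-08), and Numbl, related to the Notch antagonist Numb, was 1.80 higher (SE 0.22, adjusted p = 4.7e-08). With RGLS4326 5 of 13 were called against PBS, beside 15.8% of all genes, and 1 of the 5 remained without mouse 9, beside 8.14% of all genes in that fit. Neurl1b was lower by a log2 fold change of -0.29 (adjusted p = 0.0125), Numbl by -0.42 (adjusted p = 0.0406) and Dtx1, another Deltex ligase, by -0.50 (adjusted p = 0.0426), and Dtx3 was also lower. Itch, a ubiquitin ligase that acts on the receptor, was 0.21 higher (adjusted p = 0.0479). Without mouse 9 the adjusted p of Itch was 0.0806, and Neurl1b still passed (adjusted p = 0.0177). Of the 7 transcripts with a seed match, Kat2b and Itch were thus called higher with RGLS4326 and Neurl1b lower. The other 4 did not pass, at log2 differences of 0.10 for Furin, 0.08 for Rbpj, -0.01 for Maml1 and -0.20 for Maml3. Of the other targets, 4 of 7 could be tested. In PBS kidneys Hes6 fell by 0.33 (adjusted p = 0.000624) and Hey2 fell by 0.57 (adjusted p = 0.00996). With RGLS4326 edgeR and DESeq2 each called 0 of the 4 against PBS, with 1 at an unadjusted p under 0.05, beside 36.8% of all genes.

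**Figure D3:**
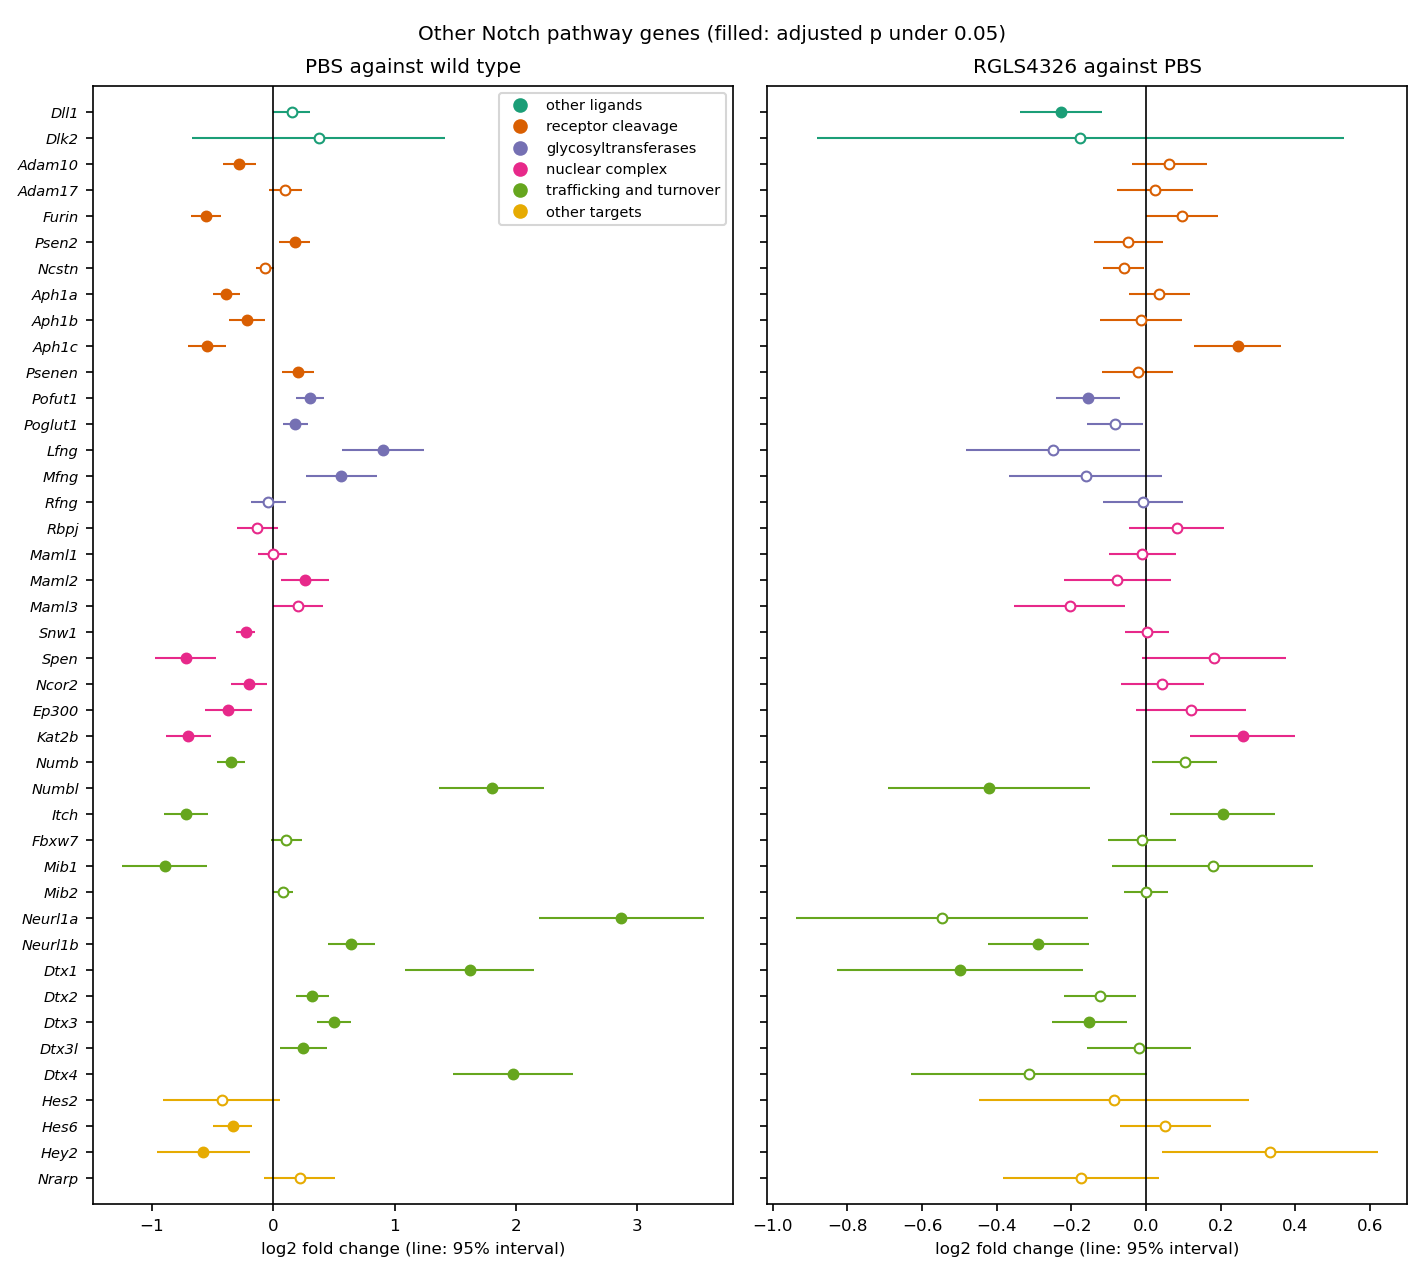
Log2 fold changes of other pathway genes tested, coloured by role, in PBS against wild type (left) and RGLS4326 against PBS (right, a narrower axis), with lines for 95% intervals and filled points at an adjusted p under 0.05. Neurl1a, Dtx4 and Numbl lie farthest right at 2.87, 1.98 and 1.80 on the left, and all filled points on the right lie between -0.50 and 0.26.

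Whole kidneys were sequenced, so fewer cells of a type and less RNA per cell cannot be told apart for any of these genes. All 45 marker genes of kidney cell types had counts in every kidney, the lowest being 5. The 3 collecting duct markers went in the direction of Jag1, being called 3 of 3 higher in PBS against wild type, where 37.7% of all genes were. In RGLS4326 against PBS 3 of 3 were called lower, where 6.66% of all genes were. In that comparison 1 of 7 injured tubule and 1 of 6 mural cell markers were called lower, and 1 of 5 proximal tubule markers higher. No other marker list had a call. Marker calls without mouse 9 were not examined. Their summed level was 337 to 602 CPM in wild type, 1105 to 2391 CPM with PBS and 582 to 1644 CPM with RGLS4326, or 1047 to 1644 CPM without mouse 9. For Heyl, the 6 mural cell markers summed to 159 to 199 CPM in wild type, 209 to 482 CPM with PBS and 236 to 441 CPM with RGLS4326, with 4 called higher and 1 lower in PBS kidneys. For Hes1, the 7 injured tubule markers were all called higher and summed to 457 to 992 CPM in wild type, 3076 to 7576 CPM with PBS and 856 to 6526 CPM with RGLS4326, or 2659 to 6526 CPM without mouse 9. For Notch4 and Dll4, the 8 blood endothelium markers summed to 336 to 453 CPM, 240 to 434 CPM and 235 to 484 CPM in these groups, the highest treated kidney being mouse 9 and the next 403 CPM, and 3 of 8 were called lower in PBS kidneys with none higher. Fibroblast markers (4 of 6 higher) and leukocyte markers (5 of 5 higher) rose in PBS kidneys as well, while proximal tubule markers fell (5 of 5 lower). The part of these cell types in the members' differences was not tested.

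Members also differed between mice of the same group. Lcn2, which encodes the tubular injury protein Ngal, was used as the scale of injury, and 20 relations were computed, 10 members in each of the PBS and RGLS4326 groups. Among PBS-treated kidneys Hes1 was higher where Lcn2 was higher, with Pearson's r = 0.88 (adjusted p = 0.00200) and Spearman's rho = 0.87 (adjusted p = 0.00760, two-sided permutation tests, n = 12). Hey1, which passed no test between groups, showed r = 0.85 (adjusted p = 0.00690) and rho = 0.83 (adjusted p = 0.0138) by the same permutation tests. Without the 2 mice farthest from the median of Lcn2, r was 0.86 for Hes1 and 0.91 for Hey1. With values centred within the number series, r was 0.86 and 0.84 (adjusted p = 0.0467 for each, permutation test). Jag1 gave r = 0.71 (adjusted p = 0.0570) and rho = 0.79 (adjusted p = 0.0215, permutation tests), and r = 0.72 without the 2 mice. The share of all genes that follow Lcn2 was not computed, so these relations cannot be read as particular to the members.

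Among RGLS4326-treated kidneys 1 relation passed on r, that of Hes1 (r = 0.65, adjusted p = 0.0289, and rho = 0.53, adjusted p = 0.149, permutation tests, n = 14). That pass depended on mouse 9, and without that mouse r was 0.51 (adjusted p = 0.257, permutation test, n = 13). Without the 2 mice farthest from the median of Lcn2, r was 0.68 (n = 12). Hey1 gave r = -0.71 with mouse 9, the kidney with the highest Hey1 at 2.81 CPM and the lowest Lcn2 of its group, and r = 0.06 without it. Jag1 gave r = 0.54 and rho = 0.71 (adjusted p = 0.0893 and 0.0265, permutation tests) with all 14 kidneys, and r = 0.62 and rho = 0.67 (adjusted p = 0.129 and 0.0729) without mouse 9. Whether the relations differ between the treatment groups was not tested.

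**Figure D4:**
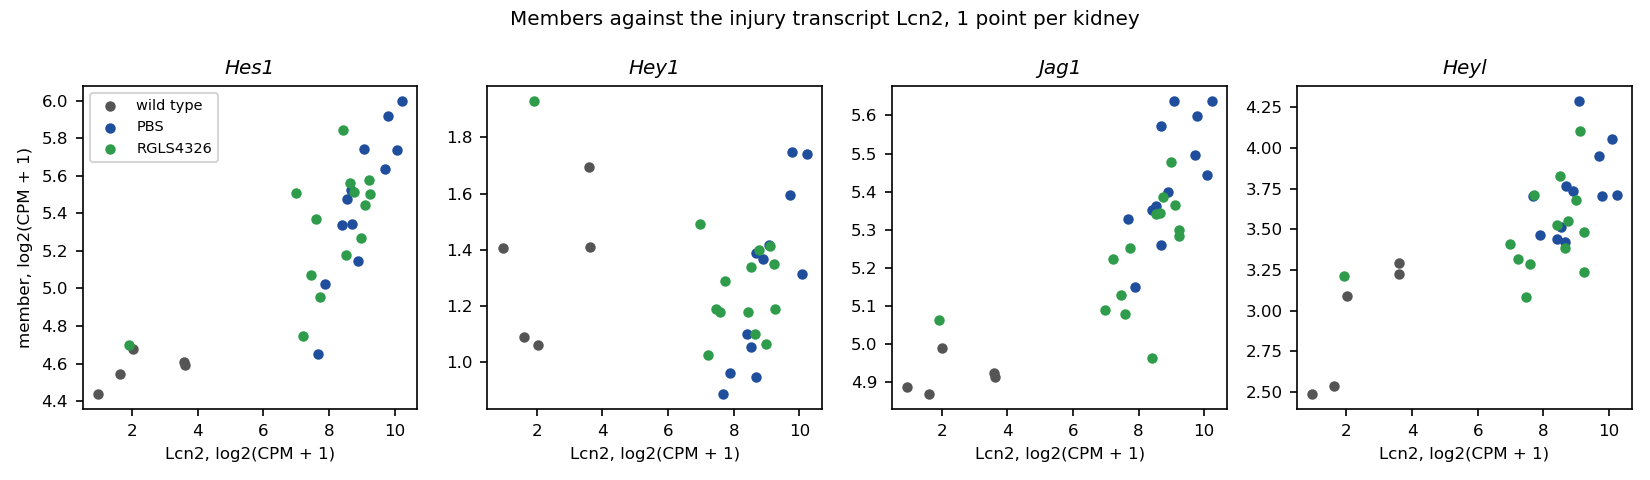
Expression of Hes1, Hey1, Jag1 and Heyl against Lcn2 in each kidney, both as log2(CPM + 1), coloured by group. In PBS kidneys Hes1 and Hey1 are higher where Lcn2 is higher (r = 0.88 and 0.85), Jag1 gave r = 0.71, which did not pass on r but did on rho, and the RGLS4326 kidney at the far left of each panel, among the wild-type mice, is mouse 9.

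The members were then compared with each other over all 31 kidneys, as deviations from their group means. Of 45 pairs, 19 passed an adjusted p of 0.05 on Pearson's r, 18 positive and 1 negative, and all 19 kept their sign without the 2 farthest mice and within the number series. Notch1 and Dll4 were most alike, with r = 0.71 and rho = 0.78 (adjusted p = 0.000900 and 0.000450, permutation tests, n = 31), r = 0.69 without 2 mice and r = 0.71 within series. Notch1 was also high where Heyl (r = 0.66), Jag2 (r = 0.66) and Notch3 (r = 0.60) were high. The negative pair was Notch3 and Hes1, with r = -0.61 and rho = -0.55 (adjusted p = 0.00456 and 0.0107, permutation tests), r = -0.55 without 2 mice and r = -0.60 within series. The genes of a pair share their libraries and their depth, and the share of cell types in each kidney was not separated from them. How often pairs of other genes pass was not computed, so 19 of 45 cannot be read as particular to the pathway. The pairs were not recomputed without mouse 9, which lay above the other 13 treated kidneys for Notch3, Dll4 and Hey1.

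Over the same 31 kidneys, 13783 genes averaging 1 CPM or more were searched for those whose deviations followed each member most closely. Notch3 was most like Flt1 (r = 0.90), Pcdh12 (r = 0.89) and Pecam1 (r = 0.89), Dll4 most like Dlc1 (r = 0.84), Gimap5 (r = 0.83) and Flt4 (r = 0.82), and Notch4 most like Gimap8 (r = 0.78), Scn7a (r = 0.77) and Sparcl1 (r = 0.77). Jag1 was most like Sorbs2 (r = 0.90), Plxna1 (r = 0.88) and Sox4 (r = 0.85). Hes1 was most like Ppp1r15a (r = 0.90), Gata2 (r = 0.90) and Junb (r = 0.89), and Heyl most like Synpo, Npr3 and Unc5b (r = 0.86 for each). Notch1 was most like Podxl (r = 0.84), Dlc1 (r = 0.80) and St3gal1 (r = 0.80), Notch2 most like Mospd2 (r = 0.77) and Kmt2a (r = 0.76), and Jag2 most like Cd97 (r = 0.83), St3gal1 (r = 0.82) and Txlna (r = 0.77). Hey1 had the lowest leading value, with Nde1 at r = 0.70, Sfxn3 at 0.67 and Id1 at 0.67. Being the highest of many, these values are given as descriptions, with no test. They include RGLS4326 mouse 9 and were not recomputed without it. That kidney read 32.9 CPM for Notch3, where the other 13 treated kidneys reached at most 29.25 CPM. Its summed blood endothelium markers were 484 CPM, against at most 403 CPM in the other 13.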

How the data were processed

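The authors trimmed paired reads of a stranded mRNA library with Trim Galore, mapped them to GRCm38 with STAR and counted reads per gene with HTSeq 0.6.1 (per the labels). They deposited raw counts for 23509 genes per kidney, with no normalization. Reads assigned to no gene (10.4% to 12.5%) or to several (0.381% to 0.503%) were left out. Per-gene counting lets overlapping genes share or lose reads. HTSeq's strand setting is not given in the sources used here, so Notch1, Notch3 and Dll4, which overlap antisense exons, and Notch2, which overlaps Gm42820 on its own strand, are uncertain to that extent.

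Genes passing filterByExpr were fitted with edgeR 4.0.16 in R 4.3.3 (TMM, quasi-likelihood, 1 coefficient per group, all 31 mice), with calls at an adjusted p under 0.05. Standard errors were obtained approximately, by dividing the size of each log2 fold change by the root of its F statistic, and 95% intervals treat them as normal. DESeq2 1.42.0 was an alternative. Other alternatives changed the filter, the scaling and the mice fitted, added the number series (inferred from restarting sample numbers in the library names) or a replicate block, merged wild-type mice 3 and 4, whose counts differed least of all pairs within a group (chi-square per gene), or left out each mouse in turn. The procedure was tested on simulated data. Correlations used log2(CPM + 1), Python 3.11.15 and scipy 1.17.1, with 100000 permutations. Lengths came from GENCODE vM21.

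Named genes are the members, per other list up to 3 called genes of smallest p in each of RGLS4326 against PBS and PBS against wild type, markers set beside members, and the 3 genes most like each member. Itch, Dtx3, the genes with a seed match and those listed as untested or as called without mouse 9 were named after their values were seen, and the correlations between members were added then. Adgre1 was listed as Emr1. Some genes that the rule names are not reported here, although the counts include them. The members and lists were chosen with earlier results of these data known.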

Additional observations from a re-analysis of the deposited data

Results flagged for a closer look

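Notch2 was singled out in wild-type kidneys because 1 of the 5 lay far from the others. Wild-type mouse 1 read 66.6 CPM and the other 4 read 74.0 to 75.6 CPM, so that the gap to the nearest kidney made up 0.825 of the whole range, above the critical value of 0.71 for 5 samples. The 10 members were examined in this group, and chance alone singles out about 1 in 20 such groups. Without this mouse no comparison of Notch2 changed its call.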

How the results depend on the processing

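Most results kept their direction and call. Across 12 other settings, 100, 111 and 95 of 120 member values kept both in PBS against wild type, RGLS4326 against PBS and RGLS4326 against wild type. The cause of the changes below was not tested, except that single number series hold fewer mice. The 6 members called in PBS against wild type became 2 in series 2, 2 in series 3 and 3 at a log2 fold change over 0.5, and the 5 called in RGLS4326 against wild type became 0, 0 and 2. Over the leave-one-out fits the counts were 4 to 7 and 3 to 5 (3 without wild-type mouse 1). The 1 call between RGLS4326 and PBS became 0 in series 1, 2 and 3 alone, 0 at that size, and 0 to 2 when 1 mouse was left out (0 without PBS mouse 10, 2 without PBS mouse 7 or RGLS4326 mouse 2). Of other pathway genes, 31 called in PBS against wild type became 13 in series 3 and 16 at that size, and 27 in RGLS4326 against wild type became 0 in series 2, 4 in series 3 and 8. The 10 called between RGLS4326 and PBS became 6 without the filter, 6 with 2 groups fitted, 0 in each series, 0 at that size, and 3 to 13 when 1 mouse was left out, with 3 to 5 without PBS mouse 2, 3, 5, 9 or 10 or RGLS4326 mouse 6, 8, 9, 10 or 13. Over all genes, the 2402 calls between RGLS4326 and PBS became 1480 with 2 groups fitted, 0 in each series and 618 to 3999 when 1 mouse was left out, and in series 2 and 3 calls fell from 11281 to 6918 and 5891 in PBS against wild type and from 9861 to 392 and 2801 in RGLS4326 against wild type. The 1 member correlated with Lcn2 under RGLS4326 became 2 with values centred within series, 2 with log2(CPM + 5) and 0 without mouse 9.

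Mice share only a number between groups (mean correlation of same-numbered pairs -0.085, with 2 of 12 PBS mice most alike to their own number). With a replicate block, members called between RGLS4326 and PBS became 0, other pathway genes 0 and all genes 302, Jag1 differed by -0.17 (adjusted p = 0.0953), and Jag2 turned to 0.041. In PBS against wild type, Notch2 passed with the block (adjusted p = 0.0397) and Notch4 did not (adjusted p = 0.0821).

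Log2 differences that changed sign did not pass in either fit, apart from Dll4 in RGLS4326 against wild type. In PBS against wild type, Notch3 was 0.077 in series 1, Dll4 0.068 in series 1 and 0.17 in series 3, and Hey1 0.088 under upper-quartile scaling, 0.0035 at a mean of at least 1 CPM, 0.76 in series 3 and 0.067 with wild-type mice 3 and 4 merged. In RGLS4326 against PBS, Notch2 was 0.0093 in series 2, Notch3 0.028 in series 3, Jag2 0.11 in series 1 and Hey1 0.31 in series 2. In RGLS4326 against wild type, Notch1 was -0.11 and Notch4 -0.20 in series 2, Notch2 -0.039 and Dll4 0.0009 in series 3, and Hey1 0.029 under upper-quartile scaling, 0.43 in series 3 and 0.043 with mice merged. When 1 mouse was left out, Hey1 ranged from -0.14 to 0.13 in PBS against wild type, -0.13 to 0.054 in RGLS4326 against PBS and -0.16 to 0.11 in RGLS4326 against wild type, and in RGLS4326 against PBS Notch3 ranged from -0.085 to 0.0023 and Jag2 from -0.064 to 0.017. Depth limits Hey1 most, with 15 to 64 counts per kidney.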
